A study of Mus musculus with 12 samples.

Results

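The 36 genes described here are Trp53, which encodes the transcription factor p53, its inhibitors Mdm2 and Mdm4, and 33 genes known as p53 targets. They were chosen by symbol, and all 36 were among the 20529 genes of the count table and among the 20486 genes tested. The RNA came from 129S6/SvEvTac mouse embryonic stem cells with a GFP_5xT71BS reporter and a stably integrated FLAG-Cas9::T2A::Blasticidin construct, grown on gelatin with serum and LIF. The 12 libraries form 4 groups of 3: Cas9 control, Cas9 Trim71-/-, Tnrc6a control and Tnrc6a Trim71-/-, where Cas9 or Tnrc6a is the protein labelled as overexpressed and control or Trim71-/- the genotype. Trim71 is an RNA-binding protein that represses mRNAs, and Tnrc6a (GW182) is the scaffold through which Argonaute proteins recruit deadenylases to mRNAs targeted by microRNAs. Libraries of a group came from wells, with no clone or culture named, so the p-values measure the spread between wells and a group may stand for 1 line. The input lines of 9 libraries name other cells: HA-AVI-Tnrc6a cells in the Cas9 Trim71-/- group, HA-AVI-Tnrc6a with Ago2-/- in the Tnrc6a control group, and HA-AVI-Tnrc6a with Upf1-/- in the Tnrc6a Trim71-/- group, so the grouping rests on the titles and the overexpression tag.

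Total counts ran from 20758151 to 31552915 per library. Tnrc6a RNA was 25.1-fold higher in Tnrc6a control than in Cas9 control (3317 ± 119.6 against 132 ± 1.32 CPM, counts scaled to library size, SD, n = 3). Trim71 RNA was only slightly lower in the libraries labelled Trim71-/-, at 275 against 306 CPM with Cas9 and 240 against 264 with Tnrc6a, and the libraries of the genotypes overlapped with Cas9. Where the allele was altered is not given in the labels, so the RNA level is a weak check of the genotype. All 12 pluripotency markers listed were expressed, with Pou5f1 between 709.6 and 1560 CPM in the 4 group means. Marker sums differed between the groups: summed pluripotency markers were 6892, 7592, 4054 and 5509 CPM in the Cas9 control, Cas9 Trim71-/-, Tnrc6a control and Tnrc6a Trim71-/- groups, 10 endoderm markers summed to 403, 118, 861 and 211 CPM, and 7 markers of the 2-cell-like state to 20.5, 1.59, 466 and 173 CPM. In bulk RNA, fewer cells of a type and less RNA per cell cannot be told apart.

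p53 is held at a low level by the ubiquitin ligase Mdm2 and its partner Mdm4, and is mostly regulated through its protein rather than its mRNA. Once stabilised, by DNA damage or other stress, it binds response elements near its targets and raises genes for cell cycle arrest, cell death, DNA repair and metabolism, among them Mdm2 itself, which closes a feedback loop. Embryonic stem cells are known for abundant p53, a short G1 phase and low levels of the cyclin-dependent kinase inhibitor p21, which the gene Cdkn1a encodes and which microRNAs of these cells repress.

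The sequence that p53 reads is a pair of 10-letter decamers, each with the core CNNG, that lie up to 13 bases apart. RefSeq promoter windows (GRCm38.p6, from 250 bases before to 50 after a start) matched 28 of the 36 members with 38 windows. Such a pair, with the C and the G of both cores in place and at most 2 letters off the p53 consensus, was present in 8 of the 38 windows (21.1%) and in 4.09% of the 32851 windows of all genes. The consensus reads alike on both strands, and overlapping matches were counted once per window. Cdkn1a was the only member with no letter off, as in 0.0731% of all windows. Its capitals below include a spacer of 12 letters between the decamers. The 10 lower-case letters after them form a further decamer with 1 letter off, which is not marked. It pairs with the second decamer in capitals without a spacer. Which of these decamers p53 binds was not tested. Ccng1, Gtse1 and Rps27l had pairs with 1 letter off. These 4 stretches are shown because they hold the closest matches, with the element in capitals, each on the strand of its gene (plus for Cdkn1a, Rps27l and Gtse1, minus for Ccng1):
Cdkn1a, chr17:29090856-29090975, outside the gene: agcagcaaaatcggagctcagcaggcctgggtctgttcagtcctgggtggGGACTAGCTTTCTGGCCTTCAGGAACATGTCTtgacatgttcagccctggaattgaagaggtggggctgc
Ccng1, chr11:40755412-40755531, outside the gene: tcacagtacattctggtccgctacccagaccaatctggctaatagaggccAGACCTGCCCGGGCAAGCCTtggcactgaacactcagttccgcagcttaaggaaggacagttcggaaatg
Rps27l, chr9:66946246-66946365, within an intron of the annotated gene: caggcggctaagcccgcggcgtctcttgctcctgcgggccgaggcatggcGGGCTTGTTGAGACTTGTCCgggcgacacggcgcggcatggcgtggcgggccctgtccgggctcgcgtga
Gtse1, chr15:85859945-85859964, overlapping an exon: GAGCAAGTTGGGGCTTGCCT
The remaining 4 members with a pair, at 2 letters off, were Bax, Ckap2, Gadd45a and Sesn1. A match is a run of letters in this window and was not tested for binding.

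Levels per gene length, as RPKM (read counts scaled to gene length and library size) averaged over all libraries, spanned from 190.7 for Rps27l, 153 for Ccng1 and 137 for Bax down to 1.12 for Rrm2b and 0.296 for Fas. Trp53 itself ranked sixth at 94.1 RPKM. Fas had 2 to 35 counts per library, far fewer than most members.

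A gene is called higher or lower below where edgeR's quasi-likelihood test gave an adjusted p under 0.05 over all genes tested. With Tnrc6a instead of Cas9 overexpressed in control cells, 24 of the 36 members were higher, where 30.4% of all genes tested were, and 8 were lower, where 33.1% of all genes were. The median log2 fold change of the members was 0.41, and that of all genes tested was -0.02. In Trim71-/- cells the same exchange gave 26 higher members (32.0% of all genes) and 6 lower (30.9% of all genes), with a median of 0.66 against 0.02 for all genes. Of the members, 23 were higher and 6 lower in both genotypes, which share no library, and no member was called in opposite directions. Of the 20486 genes tested, 10754 were called in both genotypes, 10672 of them in the same direction. Their split into higher and lower was not counted.

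Between genotypes the members differed less and more of them were lower than higher. In Trim71-/- cells with Cas9, 6 members were higher (17.1% of all genes) and 20 lower (19.1% of all genes), with a median log2 fold change of -0.20 against -0.01 for all genes. With Tnrc6a, 7 members were higher (20.0% of all genes) and 14 lower (19.0% of all genes), with a median of -0.07 against 0.00 for all genes (0.0025). With both constructs 11 members were lower and 5 higher, and Cdkn1a was called lower with Cas9 and higher with Tnrc6a. Of the 20486 genes tested, 4975 were called with both constructs, 4851 of them in the same direction. How these split into higher and lower was not counted.

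**Figure D1:**
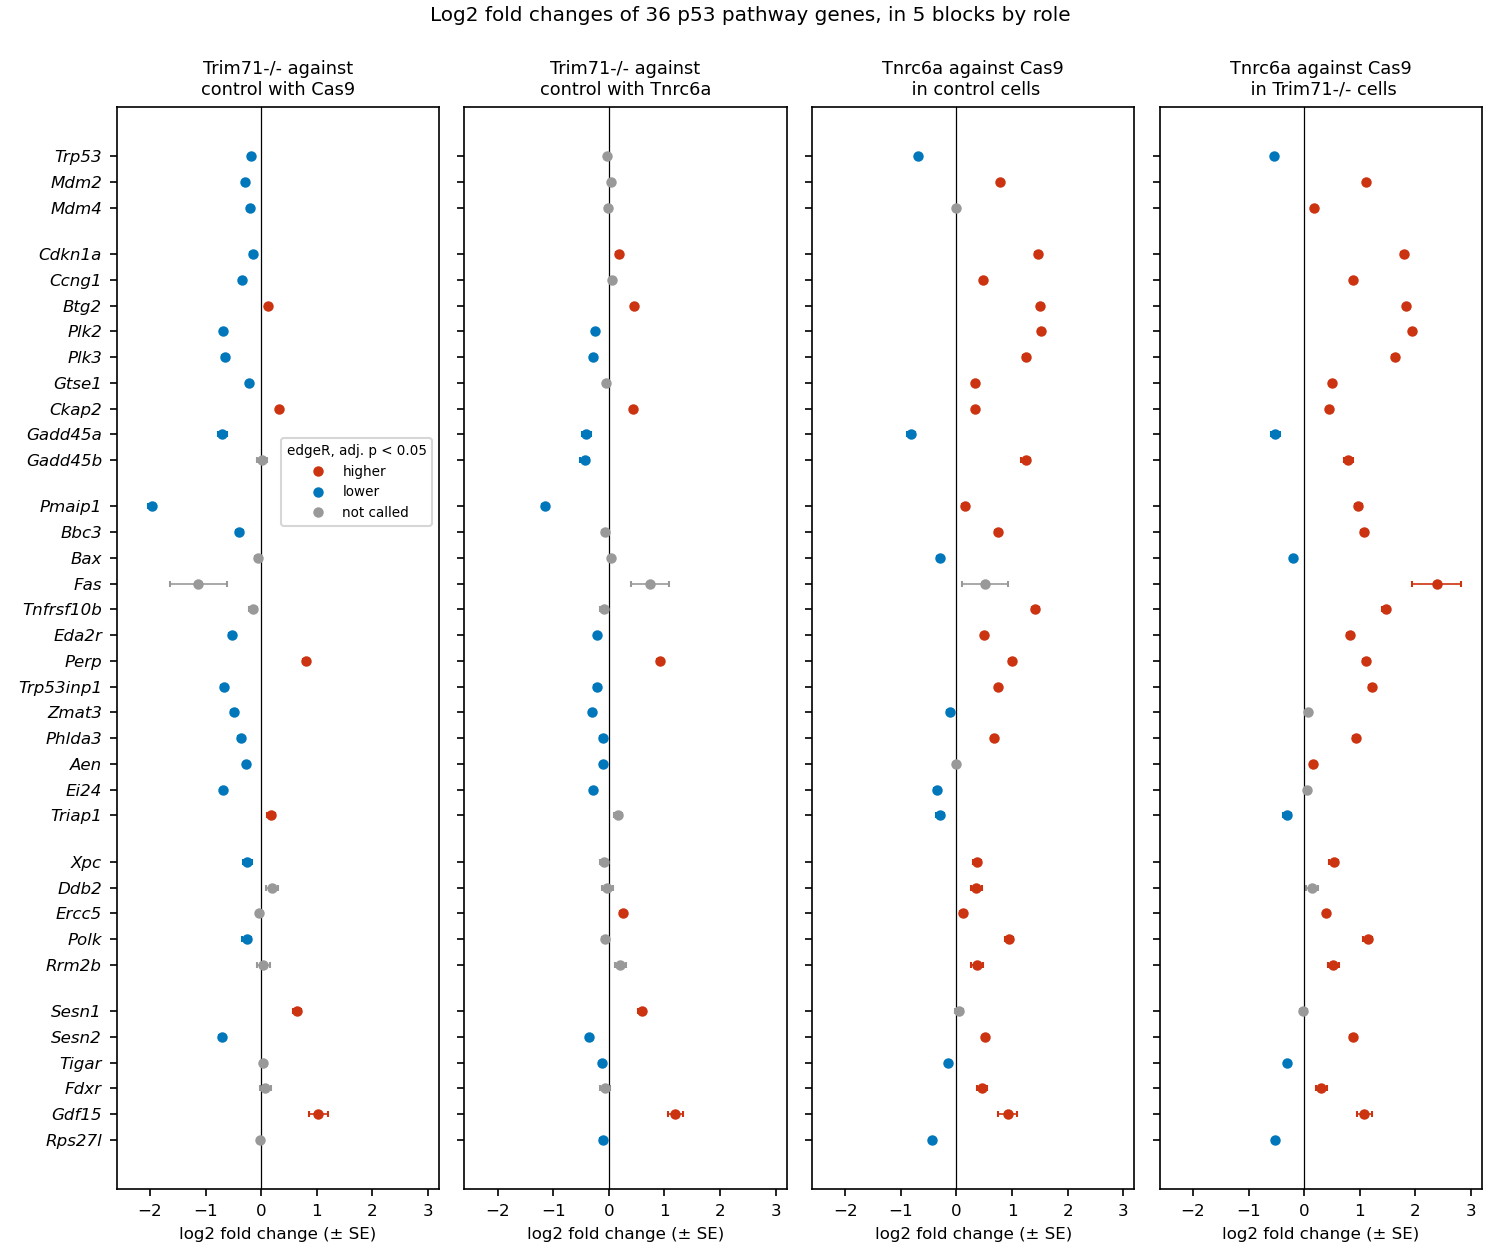
Log2 fold change ± SE of the 36 members in 4 comparisons (horizontal axes), with genes on the vertical axis in 5 blocks by role: p53 and its inhibitors, growth arrest and mitosis, cell death and survival, DNA repair, and metabolism and stress. Points are coloured by the edgeR call; in the third panel 24 members lie to the right as higher and 8 to the left as lower, and in the first panel Pmaip1 is the leftmost at -1.97.

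Trp53 RNA fell with Tnrc6a while the gene of its main inhibitor rose. Trp53 (chr11:69580359-69591873) stood at 496, 505 and 469 CPM in Cas9 control, 424, 441 and 431 in Cas9 Trim71-/-, 301.5, 306 and 306 in Tnrc6a control, and 307, 284 and 302 in Tnrc6a Trim71-/-. Every Tnrc6a library was below every Cas9 library, and the Cas9 Trim71-/- libraries lay below the Cas9 controls, while the genotypes overlapped with Tnrc6a. The log2 fold change of Trp53 with Tnrc6a was -0.69 ± 0.04 (SE) in control cells and -0.54 ± 0.04 in Trim71-/- cells (edgeR, adjusted p = 3.15e-20 and 1.49e-16). Mdm2 (chr10:117688875-117710758), the ubiquitin ligase, read 184, 187 and 183 CPM in Cas9 control, 154, 151 and 149 in Cas9 Trim71-/-, 309.5, 326 and 323 in Tnrc6a control, and 321, 329 and 332 in Tnrc6a Trim71-/-. It was high in all 6 Tnrc6a libraries and lowest in Cas9 Trim71-/-, with log2 fold changes of 0.79 ± 0.04 and 1.11 ± 0.04 for Tnrc6a in control and Trim71-/- cells (edgeR, adjusted p = 1.46e-22 and 1.62e-27). Mdm4, which blocks the activation domain of p53, hardly moved: its group means were 246, 215, 245 and 244 CPM, so that it was lower in Cas9 Trim71-/- than in either group it was compared with (-0.19 ± 0.04 for the genotype with Cas9, 0.18 ± 0.04 for Tnrc6a in Trim71-/- cells). Annotated copies of Trp53 and Mdm4 exist as pseudogenes (Trp53-ps and Mdm4-ps), and how reads were shared with them was not stated.

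Of the 9 genes of growth arrest and mitosis, 8 were higher with Tnrc6a in both genotypes, and Gadd45a was lower in both. Over all genes, 30.4% were higher in control and 32.0% in Trim71-/- cells, and 33.1% and 30.9% were lower. The median log2 fold changes of the 9 were 1.25 in control and 0.87 in Trim71-/- cells. Cdkn1a (chr17:29090976-29100727) is the p21 gene, whose pair with no letter off is shown above. It was at 32.1, 34.2 and 32.0 CPM in Cas9 control and at 28.0, 28.9 and 31.9 in Cas9 Trim71-/-. Its level was 93.2, 91.3 and 88.1 CPM in Tnrc6a control and 102, 98.2 and 107 in Tnrc6a Trim71-/-. All Tnrc6a libraries exceeded all Cas9 libraries by more than the spread of any group, a 2.78-fold rise in control cells and 3.48-fold in Trim71-/- cells (edgeR, adjusted p = 1.52e-26 and 2.15e-29). The genotype difference of Cdkn1a was small and of opposite sign with the 2 constructs, at -0.15 ± 0.06 with Cas9 (edgeR, adjusted p = 0.041) and 0.18 ± 0.05 with Tnrc6a (edgeR, adjusted p = 0.00243) on the log2 scale. The call with Cas9 was lost, with adjusted p between 0.0548 and 0.208 in edgeR, when any 1 of 7 libraries was left out (Cas9 control replicates 1 and 2, Cas9 Trim71-/- 1 and 2, Tnrc6a control 1 and 2, Tnrc6a Trim71-/- 2), and also in DESeq2 (0.0544), limma-voom (0.0727), the fit of these 2 groups alone (0.109) and edgeR without chromosome 8 genes (0.0776). Cdkn1a is overlapped by AC167363.2 on the other strand, and no source used here says whether counting used strand.

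Btg2, an antiproliferative protein that binds the deadenylase complex, gave 67.1, 63.9 and 69.9 CPM in Cas9 control, 70.4, 74.5 and 74.8 in Cas9 Trim71-/-, 189.7, 190.1 and 193 in Tnrc6a control, and 259, 257 and 270.2 in Tnrc6a Trim71-/-. Its levels rose 2.85-fold with Tnrc6a in control and 3.58-fold in Trim71-/- cells, and Tnrc6a Trim71-/- libraries stood above all others (edgeR, adjusted p = 2.62e-30 and 1.19e-33). The small rise of Btg2 in Cas9 Trim71-/- (0.13 ± 0.04 on the log2 scale, edgeR, adjusted p = 0.022) was lost without Cas9 control replicate 1 or 2 or Cas9 Trim71-/- replicate 2 or 3, at adjusted p from 0.0529 to 0.141 in edgeR. Plk2, a polo-like kinase induced by stress, was at 83.5, 83.1 and 84.4 CPM in Cas9 control, 52.99, 51.5 and 52.1 in Cas9 Trim71-/-, 235, 239 and 244 in Tnrc6a control, and 198, 203 and 203 in Tnrc6a Trim71-/-. The 4 groups of Plk2 did not overlap: it was lower in Trim71-/- cells with either construct (log2 -0.68 ± 0.04 and -0.25 ± 0.04) and higher with Tnrc6a in either genotype (1.52 ± 0.04 and 1.95 ± 0.04; edgeR, adjusted p at most 3.51e-07 for the 4). Plk3, its paralogue, followed the same order of groups, with mean levels of 43.9, 27.9, 105 and 86.5 CPM. Plk3 is overlapped by Tctex1d4 on the other strand.

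Ccng1 (cyclin G1, a p53 feedback gene, element shown above) averaged 466, 368, 648 and 674 CPM in the order Cas9 control, Cas9 Trim71-/-, Tnrc6a control and Tnrc6a Trim71-/-. Gtse1, a microtubule-bound protein of S and G2 phase that restrains p53, averaged 316, 273, 400.1 and 386 CPM. Both were lower in Trim71-/- cells with Cas9 and were not called between genotypes with Tnrc6a, where DESeq2 called Gtse1 lower (-0.08, adjusted p = 0.0264). Ckap2, a spindle protein on chromosome 8, was higher in Trim71-/- cells with both constructs (log2 0.32 ± 0.04 and 0.44 ± 0.04). Of the tested genes of that chromosome, 664 had a mean of at least 5 CPM. Their median log2 difference between genotypes was 0.49 with Cas9 and 0.52 with Tnrc6a. Most of these genes had positive differences, with lower quartiles of 0.31 and 0.32. What part that block has in the level of Ckap2 was not tested.

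The 2 Gadd45 stress genes moved in opposite directions with Tnrc6a. Gadd45a was at 25.4, 25.9 and 26.9 CPM in Cas9 control, 15.5, 16.5 and 16.4 in Cas9 Trim71-/-, 14.6, 16.0 and 13.9 in Tnrc6a control, and 11.4, 11.5 and 10.8 in Tnrc6a Trim71-/-. Cas9 control was highest and Tnrc6a Trim71-/- lowest, and Gadd45a was called lower in all 4 comparisons, with log2 fold changes between -0.40 and -0.81. Gadd45b was at 11.5, 12.1 and 10.9 CPM in Cas9 control, 11.1, 10.6 and 13.4 in Cas9 Trim71-/-, 28.3, 25.3 and 28.2 in Tnrc6a control, and 20.5, 19.9 and 20.2 in Tnrc6a Trim71-/-. The Cas9 groups of Gadd45b overlapped and both Tnrc6a groups lay above them, by 2.38-fold in control and 1.73-fold in Trim71-/- cells. Gadd45a is overlapped by E230016M11Rik on the other strand.

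**Figure D2:**
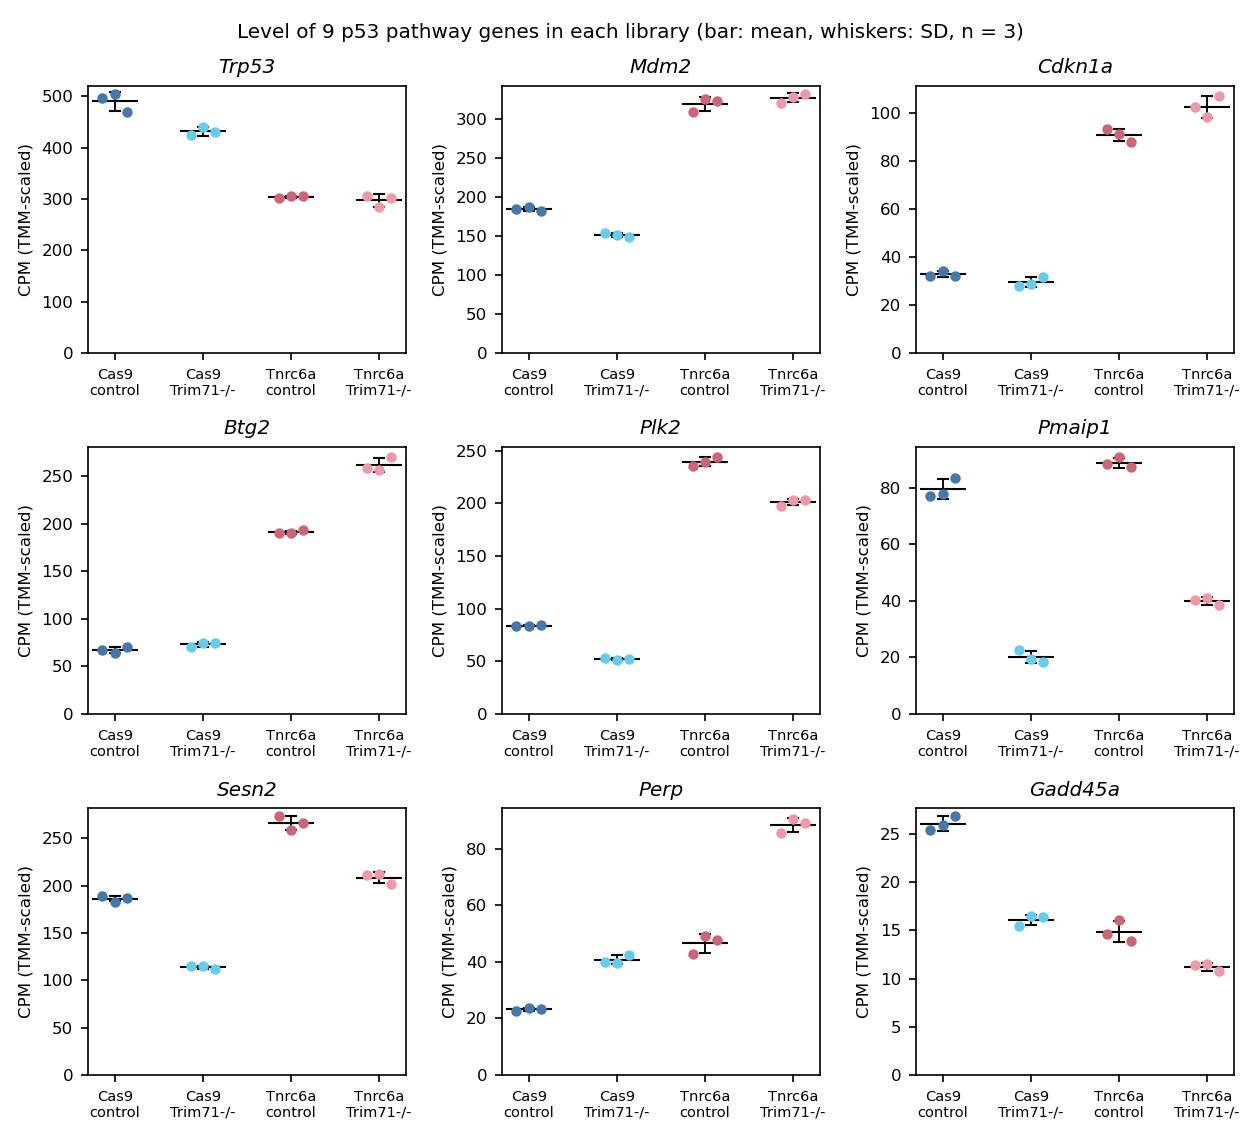
Level of 9 members in each of the 12 libraries, in CPM on linear axes that start at 0; points are libraries, bars the mean and whiskers the SD of 3. The Tnrc6a libraries of Mdm2, Cdkn1a, Btg2 and Plk2 lie above all Cas9 libraries, those of Trp53 below them, and Pmaip1 separates by genotype.

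Among 13 genes of cell death and survival, 7 were higher and 4 lower with Tnrc6a in control cells (30.4% and 33.1% of all genes). In Trim71-/- cells 9 were higher and 2 lower (32.0% and 30.9% of all genes). Between genotypes 8 were lower and 2 higher with Cas9 (19.1% and 17.1% of all genes). With Tnrc6a 7 were lower and 1 higher (19.0% and 20.0% of all genes). Pmaip1 (Noxa), a BH3-only protein that neutralises Mcl1, was at 77.1, 77.8 and 83.5 CPM in Cas9 control, 22.5, 19.5 and 18.5 in Cas9 Trim71-/-, 88.3, 90.7 and 87.3 in Tnrc6a control, and 40.2, 41.2 and 38.5 in Tnrc6a Trim71-/-. Each Trim71-/- group lay far below its control group, 3.91-fold with Cas9 and 2.22-fold with Tnrc6a (edgeR, adjusted p = 2.02e-28 and 6.83e-22), and the level with Tnrc6a in Trim71-/- cells was 1.97-fold that with Cas9. Bbc3 (Puma), the other BH3-only protein of the list, read 32.7, 32.6 and 32.6 CPM in Cas9 control, 23.6, 25.3 and 26.0 in Cas9 Trim71-/-, 54.1, 57.6 and 53.1 in Tnrc6a control, and 53.5, 51.7 and 52.0 in Tnrc6a Trim71-/-. Bbc3 was lower in Trim71-/- cells with Cas9 (-0.39 ± 0.06), whereas the genotypes overlapped with Tnrc6a, and it was 1.68-fold and 2.10-fold higher with Tnrc6a in control and Trim71-/- cells. Bax, which forms the mitochondrial pore, went the other way with Tnrc6a, with means of 239, 229, 194 and 199.8 CPM and log2 fold changes of -0.30 ± 0.05 and -0.20 ± 0.05. Without Cas9 Trim71-/- replicate 3 the second of these was -0.13 (edgeR, adjusted p = 0.00598) and the genotype difference of Bax with Cas9, not called otherwise at -0.06, became -0.13 (edgeR, adjusted p = 0.0147). Bax shares its strand with an overlapping gene, Gm45808.

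The death receptors differed in level by a wide margin. Tnfrsf10b, a receptor for the ligand TRAIL, was at 18.8, 17.3 and 17.4 CPM in Cas9 control and at 17.4, 15.6 and 15.4 in Cas9 Trim71-/-. It was at 48.2, 47.8 and 47.5 CPM in Tnrc6a control and at 45.8, 46.1 and 42.6 in Tnrc6a Trim71-/-. All Tnrc6a libraries lay above all Cas9 libraries, by 2.68-fold and 2.77-fold in control and Trim71-/- cells, and the genotype differences were not called. That with Cas9 was called without Cas9 Trim71-/- replicate 1 (log2 -0.20 against -0.14, edgeR, adjusted p = 0.0473). Fas was near its detection limit at 0.101 to 1.29 CPM, with totals of 34, 16, 58 and 90 counts in Cas9 control, Cas9 Trim71-/-, Tnrc6a control and Tnrc6a Trim71-/-. It was called in 1 comparison, higher with Tnrc6a in Trim71-/- cells (log2 2.39 ± 0.44, edgeR, adjusted p = 8.81e-06), and without Cas9 control replicate 2, which held 2 counts, the genotype difference with Cas9 was also called (-1.53, edgeR, adjusted p = 0.0125). Eda2r, the receptor of ectodysplasin A2, averaged 88.0, 61.1, 125 and 108 CPM and was called in each comparison.

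Perp and Trp53inp1 had genotype differences of opposite sign. Perp, a membrane protein of desmosomes, was at 22.8, 23.8 and 23.3 CPM in Cas9 control, 40.2, 39.6 and 42.6 in Cas9 Trim71-/-, 42.7, 49.3 and 47.6 in Tnrc6a control, and 85.6, 90.6 and 89.2 in Tnrc6a Trim71-/-. Its levels were highest where Tnrc6a and Trim71-/- coincided and lowest in Cas9 control. Every contrast was positive: 0.81 ± 0.06 and 0.93 ± 0.05 for the genotype and 1.00 ± 0.06 and 1.12 ± 0.05 for Tnrc6a. Trp53inp1, a nuclear protein that promotes cell death and autophagy, averaged 297, 186, 501.5 and 432 CPM, with genotype differences of -0.68 ± 0.05 and -0.22 ± 0.04 and Tnrc6a differences of 0.76 ± 0.05 and 1.22 ± 0.05. Phlda3, a competitor of the kinase Akt at the membrane, averaged 124, 96.4, 198 and 184 CPM. Its genotype difference with Tnrc6a (-0.11, edgeR, adjusted p = 0.0332) was lost without Tnrc6a Trim71-/- replicate 2 or 3 (0.0515 and 0.158).

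Of the other genes of this role, Ei24, an autophagy protein of the endoplasmic reticulum, averaged 184, 114, 143 and 118 CPM and was highest in Cas9 control. Zmat3, an RNA-binding splicing regulator, followed with 147, 105, 135 and 109.9 CPM. Aen, an exonuclease of apoptotic nuclei, averaged 176, 145, 174 and 163 CPM. These 3 were lower in Trim71-/- cells with both constructs. The genotype call of Aen with Tnrc6a (-0.10, edgeR, adjusted p = 0.0447) was lost without Cas9 control replicate 1 or 3, Tnrc6a control 1, or Tnrc6a Trim71-/- 1 or 3 (0.0511 to 0.169). The lower Zmat3 with Tnrc6a in control cells (-0.12, edgeR, adjusted p = 0.00628) was lost without Tnrc6a control replicate 1 (-0.08, 0.139) or 2 (-0.10, 0.0717), and also in DESeq2 (0.0648) and with relative log expression factors (0.0668). Triap1, a small mitochondrial survival protein, averaged 28.6, 32.3, 23.3 and 26.1 CPM and was lower with Tnrc6a in both genotypes. Its rise in Cas9 Trim71-/- (0.17 ± 0.07, edgeR, adjusted p = 0.0415) came from overlapping groups and was lost without Cas9 control replicate 2 or 3 or Cas9 Trim71-/- replicate 2 or 3 (0.0678 to 0.235), in DESeq2 (0.0627), in limma-voom (0.0501) and with upper-quartile factors (0.0529). With Tnrc6a, the genotype difference of Triap1 was called only without Cas9 Trim71-/- replicate 3 or Tnrc6a control replicate 1 (edgeR, adjusted p = 0.0479 and 0.0425), among the libraries left out.

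All 5 genes of DNA repair and nucleotide supply were called higher with Tnrc6a in control cells (30.4% of all genes). In Trim71-/- cells 4 of 5 were (32.0% of all genes). Polk, a polymerase that copies damaged DNA, stood out, at 18.1, 17.9 and 21.3 CPM in Cas9 control, 16.0, 15.8 and 16.3 in Cas9 Trim71-/-, 34.5, 35.7 and 40.2 in Tnrc6a control, and 35.1, 36.04 and 34.6 in Tnrc6a Trim71-/-. Its Tnrc6a libraries all lay above its Cas9 libraries, by 1.92-fold and 2.204-fold in the 2 genotypes (edgeR, adjusted p = 1.68e-15 and 1.01e-17). Xpc and Ddb2, which find damaged bases for nucleotide excision repair, averaged 16.8 and 9.80 CPM in Cas9 control and rose by 0.37 ± 0.08 and 0.35 ± 0.10 on the log2 scale with Tnrc6a in control cells. Ercc5, a nuclease of the same pathway, averaged 53.5, 52.5, 58.3 and 69.3 CPM, and Rrm2b, the p53-induced subunit of ribonucleotide reductase, averaged 8.47, 8.73, 10.99 and 12.6 CPM. Several of these small calls were lost with 1 library left out. Polk was lower in Cas9 Trim71-/- (-0.26, edgeR, adjusted p = 0.00742), but not without Cas9 control replicate 3 (-0.17, 0.12). The lower Xpc in Cas9 Trim71-/- (-0.25, edgeR, adjusted p = 0.0188) was lost without Cas9 control replicate 1 or 3 or Cas9 Trim71-/- replicate 1 (-0.22 to -0.20, adjusted p 0.0675 to 0.107). The rise of Ercc5 with Tnrc6a in control cells (0.12, edgeR, adjusted p = 0.0342) came from overlapping groups and was lost without Cas9 control replicate 1 or 2 or Tnrc6a control replicate 3 (0.0792 to 0.192). Ddb2 in Trim71-/- cells was called higher with Tnrc6a only without Cas9 Trim71-/- replicate 1 (0.29, edgeR, adjusted p = 0.021), among the libraries left out. Ddb2 overlaps Acp2, and Rrm2b overlaps Gm49085, on the other strand.

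The 2 sestrins, inhibitors of mTORC1 signalling, gave opposite genotype differences. Sesn2 was at 189, 183 and 187 CPM in Cas9 control, 115, 115 and 112 in Cas9 Trim71-/-, 274, 258 and 265.5 in Tnrc6a control, and 211, 212 and 201.5 in Tnrc6a Trim71-/-. Sesn1 was at 19.9, 20.04 and 20.8 CPM in Cas9 control, 32.8, 30.2 and 32.3 in Cas9 Trim71-/-, 20.04, 21.8 and 21.03 in Tnrc6a control, and 32.0, 29.3 and 33.4 in Tnrc6a Trim71-/-. Sesn2 was lower in both Trim71-/- groups (-0.71 ± 0.04 and -0.35 ± 0.04) and higher with Tnrc6a, whereas Sesn1 was higher in both Trim71-/- groups (0.65 ± 0.07 and 0.59 ± 0.07) and its 2 construct differences were not called. Sesn1 is the 1 member of 36 that was not called with Tnrc6a in either genotype.

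Gdf15, a secreted cytokine of cellular stress, was at 1.73, 2.18 and 2.05 CPM in Cas9 control, 3.72, 4.88 and 3.50 in Cas9 Trim71-/-, 4.17, 3.24 and 3.78 in Tnrc6a control, and 7.97, 9.13 and 8.59 in Tnrc6a Trim71-/-. It was lowest in Cas9 control and highest in Tnrc6a Trim71-/-, and its genotype differences were 1.03 ± 0.17 with Cas9 and 1.196 ± 0.13 with Tnrc6a. Gdf15 lies on chromosome 8, whose median genotype differences of 0.49 and 0.52 were given above, and the part of that block in its level was not tested. Rps27l, a ribosomal protein paralogue with an element shown above, averaged 182, 179.7, 135 and 126 CPM and was lower with Tnrc6a in both genotypes. Tigar, a bisphosphatase that slows glycolysis, averaged 77.2, 79.3, 69.8 and 64.4 CPM, likewise lower with Tnrc6a. Fdxr, the mitochondrial ferredoxin reductase, averaged 10.5, 11.2, 14.6 and 13.9 CPM and was higher with Tnrc6a in both genotypes. The genotype calls of Rps27l and Tigar with Tnrc6a (-0.11 and -0.12, edgeR, adjusted p = 0.0466 and 0.0429) were each lost without any 1 of 3 libraries. These were Cas9 control replicates 1 and 2 and Tnrc6a Trim71-/- 1 for Rps27l (0.0514 to 0.166), and Tnrc6a control 1 and Tnrc6a Trim71-/- 1 and 3 for Tigar (0.0834 to 0.149). The lower Tigar with Tnrc6a in control cells (-0.15, edgeR, adjusted p = 0.00585) was lost without Cas9 control replicate 3 or Tnrc6a control replicate 2 (0.0626 and 0.0533) and in DESeq2 (0.0588). Tigar is overlapped by Platr31 and Ei24 by Gm26787 on the other strand.

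The genotype difference itself depended on the construct for 19 members. In the test of the interaction, which asks whether the Trim71-/- minus control difference changed from Cas9 to Tnrc6a, 18 members were called higher (4.68% of all genes) and 1 lower (2.25% of all genes), with a median of 0.19 against 0.02 for all genes. Over all genes, 958 were called higher and 461 lower with the scaling used here, and 768 and 613 with relative log expression factors, under which 14 members were called higher. The split over all genes also narrowed without single libraries. It was 548 and 511 without Tnrc6a control replicate 1, 543 and 519 without replicate 2, and 584 and 521 without Tnrc6a Trim71-/- replicate 2. The members called higher fell from 18 to 13 in each of these fits, the lowest number with any 1 library left out. A positive value means that the difference was less negative, or more positive, with Tnrc6a. The largest was that of Pmaip1, 0.82 ± 0.08 (edgeR, adjusted p = 5.71e-10), from -1.97 with Cas9 to -1.15 with Tnrc6a. Next came Trp53inp1 at 0.46 ± 0.06, Plk2 at 0.43 ± 0.06, Ei24 at 0.41 ± 0.06 and Ccng1 at 0.40 ± 0.05 (edgeR, adjusted p at most 9.87e-06 for the 4). Mdm2 (0.32), Cdkn1a (0.32), Btg2 (0.33), Bbc3 (0.32) and Sesn2 (0.36) had values of similar size. Gadd45b was the 1 member called lower, at -0.46 ± 0.12 (edgeR, adjusted p = 0.011), with genotype differences of 0.02 with Cas9 and -0.43 with Tnrc6a. The call was lost without Cas9 Trim71-/- replicate 3 (-0.36, 0.0553). Perp, Sesn1 and Gdf15, the members with the largest called rises in Trim71-/- cells, had interactions of 0.12, -0.06 and 0.17 that were not called. Calls of 5 further members were lost when 1 library was left out, with adjusted p up to 0.253 for Mdm4 (any 1 of 6 libraries), 0.222 for Zmat3 (6), 0.258 for Aen (9), 0.281 for Gtse1 (9) and 0.112 for Ercc5 (4) in edgeR. Their highest values came without Tnrc6a control replicate 2 for Mdm4 and Aen, Tnrc6a control replicate 1 for Zmat3 and Gtse1, and Tnrc6a Trim71-/- replicate 2 for Ercc5, and Mdm4 then fell from 0.18 to 0.12. Trp53 (0.15, adjusted p = 0.0723) and Fas (1.87, 0.0576) were called in edgeR without Cas9 control replicate 3 (0.0408) and Cas9 control replicate 2 (0.0111), respectively.

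**Figure D3:**
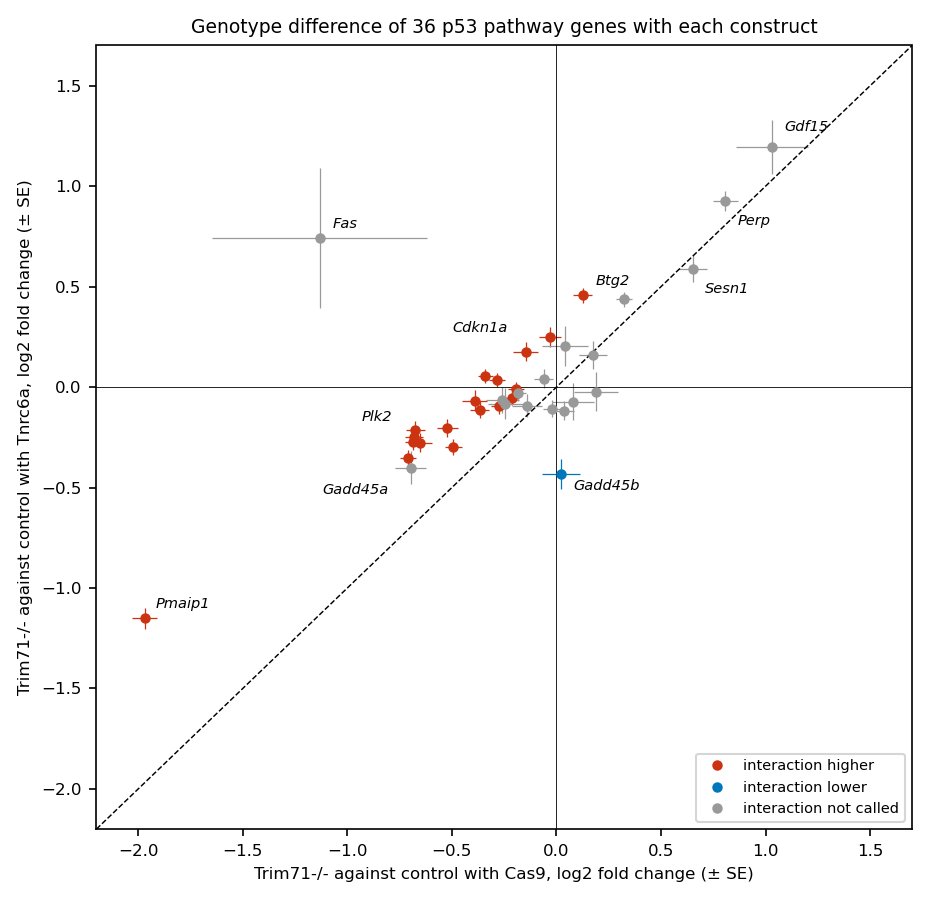
Log2 fold change ± SE of Trim71-/- against control with Cas9 (horizontal) and with Tnrc6a (vertical) for the 36 members; the dashed line marks equal values and colour the edgeR call of the interaction. The 18 members called higher lie above the line and Gadd45b below it, while Perp, Sesn1 and Gdf15 lie near it.

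Other genes of the pathway were taken from lists of upstream regulators, further targets and cell cycle genes repressed through p21 and the DREAM complex. These lists, like the members, were chosen with earlier results of these data known, so their counts are no independent check of the members. Of 30 further p53 targets, 15 were higher and 5 lower with Tnrc6a in control cells (30.4% and 33.1% of all genes) and 23 higher and 4 lower in Trim71-/- cells (32.0% and 30.9% of all genes), with medians of 0.26 and 0.52. Among the largest changes in control cells were those of Thbs1, a matrix protein (17.1 against 3.37 CPM), and Tap1, the peptide transporter of antigen presentation (16.1 against 3.74 CPM). In Trim71-/- cells they were Cd82, a tetraspanin at 1.96 against 0.358 CPM, Tap1 at 11.3 against 2.25 CPM, and Cmbl, a hydrolase at 0.546 against 0.115 CPM. Cd82 and Cmbl were near the detection limit in the Cas9 Trim71-/- libraries, at 0.235 to 0.507 and 0.0461 to 0.165 CPM. Between genotypes, 4 further targets were higher and 14 lower with Cas9 (17.1% and 19.1% of all genes), and 10 higher and 9 lower with Tnrc6a (20.0% and 19.0% of all genes). Dram1, an autophagy regulator, was lower in Trim71-/- cells with both constructs (-1.49 ± 0.23 and -1.69 ± 0.17). Its means were low, at 0.778 against 2.22 CPM with Cas9 and 1.64 against 5.32 CPM with Tnrc6a. Steap3, a metalloreductase, was lower in Trim71-/- cells with Cas9 by 2.37-fold. With Tnrc6a, the Trim71-/- libraries of Steap3 also all lay below those of the controls, with means of 32.9 against 58.8 CPM. The interaction was called higher for 13 of the 30 (4.68% of all genes) and lower for 1 (2.25% of all genes), Gls2, a glutaminase.

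Of 24 upstream regulators of p53, 4 were higher and 12 lower with Tnrc6a in control cells (30.4% and 33.1% of all genes), and 4 higher and 14 lower in Trim71-/- cells (32.0% and 30.9% of all genes), with medians of -0.28 and -0.23. Rpl11, a ribosomal protein that binds Mdm2, was lower in both (-0.64 ± 0.04 and -0.68 ± 0.04). Atr, the kinase of replication stress, was also lower in both (-0.56 ± 0.05 and -0.66 ± 0.05), whereas Trp53bp1, a scaffold of DNA break repair, was higher in both (0.66 ± 0.04 and 0.47 ± 0.04). Kmt5a and Trim28, which act on chromatin and are known to restrain p53, were lower in control cells (-0.46 ± 0.04 and -0.55 ± 0.03) and in Trim71-/- cells (-0.74 ± 0.04 and -0.68 ± 0.03). Between genotypes 7 regulators were higher and 6 lower with Cas9 (17.1% and 19.1% of all genes), and 6 higher and 7 lower with Tnrc6a (20.0% and 19.0% of all genes). Sirt1, a deacetylase of p53, was lower with both constructs (-0.45 ± 0.04 and -0.33 ± 0.04), and Cdkn2a was higher with both (0.54 ± 0.14 and 0.49 ± 0.14). Ing1, also higher with both, lies on chromosome 8. Kmt5a was the 1 regulator whose interaction was called (-0.28 ± 0.06).

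Of 21 cell cycle genes of the p21 and DREAM list, 4 were higher and 13 lower with Tnrc6a in control cells (30.4% and 33.1% of all genes) and 2 higher and 17 lower in Trim71-/- cells (32.0% and 30.9% of all genes), with small medians of -0.17 and -0.19. Mybl2, a transcription factor of the mitotic genes, was lower by 1.61-fold in control cells and 1.47-fold in Trim71-/- cells, and Cenpa, the centromeric histone, by 1.43-fold and 1.51-fold. Cdc20, an activator of the anaphase-promoting complex, was higher in control cells (368 against 289 CPM). Its mean was also higher with Tnrc6a in Trim71-/- cells (285 against 232 CPM). Between genotypes 3 were higher and 5 lower with Cas9 (17.1% and 19.1% of all genes) and 2 higher and 9 lower with Tnrc6a (20.0% and 19.0% of all genes). Mcm5 had the largest positive difference of them with both constructs (0.59 ± 0.03 and 0.57 ± 0.03) and lies on chromosome 8.

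**Figure D4:**
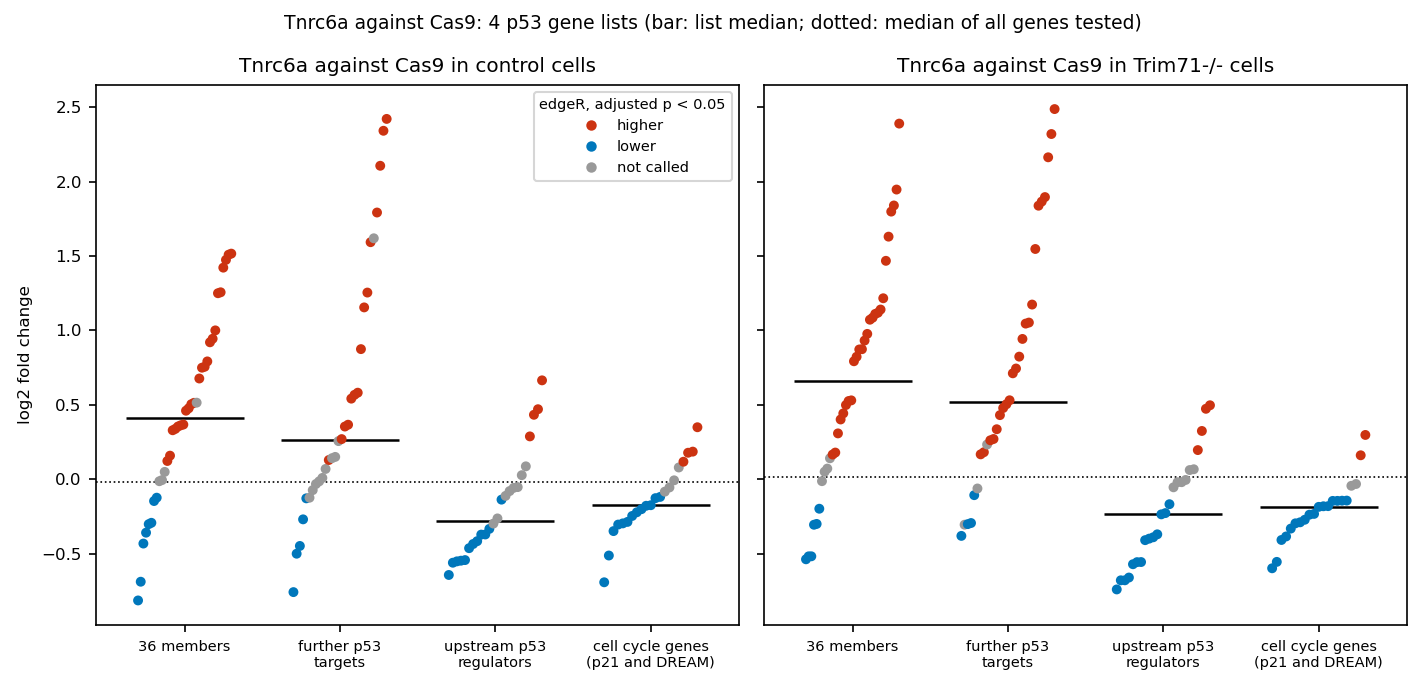
Log2 fold change of Tnrc6a against Cas9 (vertical axis) for the members and 3 further lists, in control cells (left) and Trim71-/- cells (right); each point is a gene coloured by its edgeR call, bars are list medians and the dotted line is the median of all genes tested. The medians of the members (0.41 and 0.66) and the further targets (0.26 and 0.52) lie above it, those of the regulators (-0.28 and -0.23) and cell cycle genes (-0.17 and -0.19) below it.

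Markers of other cell states moved beside these changes. With Tnrc6a in control cells, where 30.4% of all genes were higher and 33.1% lower, all 12 pluripotency markers were lower. Higher were 10 of 10 endoderm, 6 of 7 trophoblast and 7 of 7 2-cell-like markers. In Trim71-/- cells 10 of the 12 pluripotency markers were lower with Tnrc6a and the other 2 were not called (all genes: 32.0% higher, 30.9% lower). There 7 endoderm markers were higher and 1 lower, and 4 trophoblast and all 7 2-cell-like markers were higher. The summed trophoblast markers were 48.8, 44.6, 261 and 135 CPM in Cas9 control, Cas9 Trim71-/-, Tnrc6a control and Tnrc6a Trim71-/-, and 3 feeder fibroblast markers summed to 9.66, 11.4, 13.99 and 16.8 CPM. Between genotypes the 10 endoderm and 7 2-cell-like markers were all lower in Trim71-/- cells with either construct. Of the pluripotency markers, 7 were higher and 4 lower with Cas9, and 8 higher and 4 lower with Tnrc6a. Trophoblast markers were 1 higher and 4 lower with Cas9, and all 7 lower with Tnrc6a. Of all genes, 17.1% were higher and 19.1% lower with Cas9, and 20.0% and 19.0% with Tnrc6a. Among the defining genes, Gata4 averaged 21.2, 2.15, 48.0 and 6.57 CPM, Cdx2 0.974, 0.296, 1.98 and 0.532 CPM, and Zscan4c 6.82, 0.460, 155 and 54.6 CPM. The part of such cells in the levels of the p53 genes was not tested.

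Over the 12 libraries, the genes whose log2 CPM followed Cdkn1a most closely were Lif and Sfn (Pearson r = 0.996 each), then Myo1e, Arl8a and Trp53bp2 (0.994 each). Those nearest to Pmaip1 were Arhgef26 (0.991), Steap3 (0.990), Gja1 (0.986), Scpep1 (0.984) and Asns (0.979). The 12 points fall into the 4 groups and share the libraries' scaling, so these values describe the order of the groups. Sfn and Steap3 are themselves on the list of further targets.

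Because Tnrc6a serves microRNAs, a search was chosen after the results were seen. MicroRNA levels were not measured here. The 3′ UTRs of the members were searched for the seed match of microRNAs known from embryonic stem cells. Those of 3 are shown because they share 1 seed, in capitals (RefSeq, GRCm38.p6):
mmu-miR-291a-3p: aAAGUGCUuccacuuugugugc
mmu-miR-294-3p: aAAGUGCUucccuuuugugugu
mmu-miR-302d-3p: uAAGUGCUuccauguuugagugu
The matching letters AGCACTT were found in the longest annotated 3′ UTR of 8 of the 36 members (22.2%) and of 17.4% of the 14962 tested genes with such a UTR. One of 2 matches in Cdkn1a is shown, with the match in capitals, on the plus strand of GRCm38:
Cdkn1a, chr17:29099813-29099835: tcctcagacctgaatAGCACTTt
The other members with a match were Ccng1, Sesn2, Trp53inp1, Zmat3, Polk, Ei24 and Rrm2b. Of these 8, Cdkn1a, Ccng1, Sesn2, Trp53inp1, Polk and Rrm2b were higher with Tnrc6a in both genotypes, and Ei24 and Zmat3 were lower in control cells. Of all 36 members, 23 were higher with Tnrc6a in both genotypes. Of the 20486 genes tested, 10672 were called in the same direction in both genotypes. How many of these were higher was not counted. The call of Zmat3 (-0.12, edgeR, adjusted p = 0.00628) was lost without Tnrc6a control replicate 1 (-0.08, 0.139) or 2 (-0.10, 0.0717). Btg2, Plk2 and Tnfrsf10b, which were among the 23, had no match in the UTR searched. Whether these microRNAs have a part in the level of any member was not tested. Over the 14962 tested genes with such a UTR, the median log2 fold change with Tnrc6a was 0.13 with and 0.05 without a match in control cells, and 0.17 and 0.08 in Trim71-/- cells.

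Members with and without a promoter element moved in both directions. Of the 8 members with an element, 4 were higher, 3 lower and 1 not called with Tnrc6a in control cells, against 13 higher, 4 lower and 3 not called of the 20 members whose windows had none. In Trim71-/- cells the counts were 4, 3 and 1 with the element and 16, 3 and 1 without. Over all genes, 30.4% were higher and 33.1% lower in control cells, and 32.0% and 30.9% in Trim71-/- cells. Whether the split differs with the element was not tested. Cdkn1a, Ccng1, Gtse1 and Ckap2 were the risers with an element, and Bax, Gadd45a and Rps27l the members that fell.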

How the data were processed

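Total RNA of 12 mouse embryonic stem cell libraries (4 groups of 3 wells) was measured as stranded TruSeq RNA-seq. Reads were handled with bcl2fastq 2.20 and STAR 2.7.3a against GRCm38 (mm10), per the submitters' processing notes; the header of the gene length column names quasr, and how reads were assigned to genes or strands is not stated in the sources used here. The authors deposited raw counts per gene, which were tested, and RPKM values, per the file headers made from a gene length in bases and used here for levels between genes.

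The tests used edgeR 4.0.16 in R 4.3.3: filterByExpr, TMM factors, 1 mean per group over all 12 libraries, robust quasi-likelihood tests, two-sided, with Benjamini-Hochberg adjustment over 20486 genes at 0.05. The fit was tested on simulated data. CPM are TMM-scaled. Alternatives were RLE and upper-quartile factors, no filter, at least 1 CPM in 6 libraries, DESeq2 1.42.0, limma-voom (limma 3.58.1), a replicate block, the 2 groups compared alone, no chromosome 8 genes and each library left out in turn. The members and the gene lists were chosen with earlier results of these data known. All members are named, and genes of the other lists were taken from the called ones with the 3 largest changes per comparison; defining markers were named for their role. Replicate wells differed by more than sampling noise. Coordinates are from GENCODE M21 (GRCm38). Promoter and microRNA sequences came from RefSeq, and 8 members had no promoter window. The markers Afp, Ttr, Elf5, Col3a1, Postn, Lum, Dcn and Dux were not analysed here. The result of 1 listed gene is not reported here.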

Additional observations from a re-analysis of the deposited data

Results flagged for a closer look

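These members are given again because their difference between genotypes was not the same with the 2 constructs, by the test of that difference itself (edgeR, 2 groups of 3 libraries per construct, adjusted p under 0.05). In log2 units, the Trim71-/- minus control difference with Tnrc6a less that with Cas9 was 0.82 for Pmaip1, 0.46 for Trp53inp1, 0.43 for Plk2, 0.41 for Ei24 and 0.40 for Ccng1. It was 0.37 for Plk3, 0.36 for Sesn2, 0.33 for Btg2, 0.32 for Cdkn1a, 0.32 for Bbc3, 0.32 for Mdm2, 0.32 for Eda2r and 0.25 for Phlda3. It was 0.28 for Ercc5, 0.20 for Zmat3, 0.18 for Mdm4, 0.18 for Aen and 0.16 for Gtse1, which were each lost without 1 library or more (highest adjusted p in edgeR 0.112, 0.222, 0.253, 0.258 and 0.281, reached without Tnrc6a Trim71-/- replicate 2, Tnrc6a control replicate 1, Tnrc6a control replicate 2, Tnrc6a control replicate 2 and Tnrc6a control replicate 1). For Gadd45b it was -0.46, and -0.36 without Cas9 Trim71-/- replicate 3 (adjusted p = 0.0553 in edgeR).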

How the results depend on the processing

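Of 180 values (36 members in 5 comparisons), 130 were called, 112 of them under every alternative run, 18 were lost under at least 1, 10 were gained, and no called value changed sign. With each library left out in turn, higher and lower members numbered 4 to 6 and 18 to 21 (genotype, Cas9), 7 to 8 and 11 to 14 (genotype, Tnrc6a), 23 to 24 and 6 to 8 (Tnrc6a, control), 26 to 27 and 6 (Tnrc6a, Trim71-/-), and 13 to 18 and 0 to 1 (interaction); the 0 came without Cas9 Trim71-/- replicate 3. Same-numbered libraries did not deviate together: none of 18 pairs correlated over 0.1 (-0.053 to 0.025), and 2 of 12 libraries matched their own number best. A replicate block left 11 of the 14 members lower between genotypes with Tnrc6a and 16 of the 18 higher in the interaction, and 19 of the 20 lower with Cas9, where Cdkn1a was lost (-0.15, edgeR, adjusted p = 0.0519). Leaving out chromosome 8 genes left 10 of those 14, and 4 of the 6 higher with Cas9, since Gdf15 and Ckap2 were then not tested. Over all genes the interaction was called for 958 higher and 461 lower, and for 710 and 571 in DESeq2. Relative log expression factors moved the median of all genes by 0.04 (log2) with Tnrc6a in control cells, the largest shift of the scalings run. Depth limits Fas, at 2 to 35 counts per library.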
